A study of Sus scrofa with 9 samples.

Results

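*AREG* encodes amphiregulin, an EGF-like growth factor, and *FGF9* encodes fibroblast growth factor 9, a secreted ligand of the FGF receptors. These 2 genes were followed in cumulus cells of the pig, the follicular cells that enclose the oocyte in the cumulus-oocyte complex (COC). Of 19941 probes on the array, 226 could be given a gene name, and 1 of them stood for each gene: the probe that the study lists as *AREG*, and the probe NM_213801.1, whose name is the pig RefSeq transcript of *FGF9*. Both probes were taken by name, but the name of the *AREG* probe comes from a list of transcripts that the study found higher after FSH on these same arrays. Its rise after FSH on the array is therefore no independent evidence of direction. The study's own RT-PCR at 3 h, not analysed here, also found *AREG* higher after FSH. Results of these data were also known when the pair was proposed, and the study names *FGF9* too among genes that FSH increased.

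In the follicle, the preovulatory LH surge makes granulosa cells produce EGF-like factors, chiefly amphiregulin, epiregulin (EREG) and betacellulin. They are made as membrane-bound precursors, are shed by proteases and act through the EGF receptor on the cumulus cells, which then expand and let the oocyte resume meiosis. In isolated COCs, which respond poorly to LH, FSH raises cAMP through its own receptor and drives the same events. An EGF-like factor can also raise the transcription of its own family. FGF9 acts on FGF receptors of neighbouring cells and is known in the ovary as a factor that granulosa and theca cells exchange. In the RefSeq annotation of the pig assembly Sscrofa11.1, *AREG* lies between *EREG* and *BTC*, the gene of betacellulin.

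COCs were aspirated from pooled follicles of crossbred gilts 6 to 8 months old, which were obtained at an abattoir. They were cultured for 3 h with recombinant human FSH at 100 ng/ml, with recombinant human AREG and EREG at 100 ng/ml each, or with no stimulus (control), and the medium of all 3 groups held 5% fetal calf serum. Oocytes were stripped off by pipetting and removed, and the cumulus cells of about 150 COCs gave one RNA sample, so each sample is a pool of animals. The RNA was amplified, coupled to a green or a red fluorescent dye and put as pairs on 9 arrays, in 3 loops that each held the 3 samples of one biological replicate. Every RNA sample was therefore measured on 2 arrays, once in each dye, and there were 3 RNA samples per treatment. In replicate 3, a protocol text mentions FSH for the AREG/EREG sample set beside control, while its title, source and characteristics name AREG/EREG, which was followed.

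The label of the cells was compared with marker genes. Of 15 genes that mark cumulus and granulosa cells, 6 could be found on the array. *FSHR* (the FSH receptor), *INHA* (inhibin alpha), *FST* (follistatin), *NR5A2* (a nuclear receptor), *ESR2* (estrogen receptor beta) and *CYP11A1* (the first enzyme of steroid synthesis) were well above background in 18 of 18 channels. Of these 6 genes, 1 rose and 3 fell after FSH, where 36.8% of all probes tested were called at an adjusted p under 0.01 in either direction, and 1 rose and 3 fell after AREG/EREG, beside 19.6% of all probes. An alternative fit took each RNA sample once, as the mean of its channels, with the replicate number as a block, and so differs from the fit of array ratios in both respects. In it, called the replicate block fit below, 1 rose and 2 fell in each comparison. The probe names of *FST*, *NR5A2* and *CYP11A1* come from the study's own choice on these samples. The oocyte marker *BMP15* was above background in 17 of 18 channels and the leukocyte marker *CD4* in 18 of 18. Between 77.1% and 95.6% of all probe spots of a channel met that criterion, so it does not separate cell types here. Neither marker passed the test in any comparison: *BMP15* differed by 0.13 (adjusted p = 0.0576) and *CD4* by 0.12 (adjusted p = 0.0328) on the log2 scale in FSH vs. control. Further oocyte, leukocyte, theca and endothelial markers were not analysed here, as no probe could be named for them, and the part of other cells in the results below was not tested.

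*AREG* was expressed in every sample. Its median spot signal exceeded the local background in all 18 channels, by 3.31 to 9.03 times in control, by 13.8 to 28.4 times after FSH and by 7.07 to 14.5 times after AREG/EREG. After normalization the *AREG* level was 9.48, 9.28 and 9.02 log2 units in control replicates 1, 2 and 3. It was 11.36, 11.17 and 11.25 after FSH and 9.96, 9.91 and 9.99 after AREG/EREG. The 3 treatments did not overlap: every FSH sample stood above every AREG/EREG sample, and every AREG/EREG sample above every control sample. The gap between the groups was 1.17 log2 units for the former pair and 0.43 for the latter.

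The *FGF9* spot lay near its local background in control and after AREG/EREG. Its signal was 0.941 to 1.89 times the local background in control, 2.29 to 7.06 times after FSH and 1.25 to 1.77 times after AREG/EREG. It was well above background in 17 of 18 channels, and the exception was the green channel of control replicate 1, with a signal of 112 on a background of 119. The normalized *FGF9* level was 7.21, 7.23 and 7.09 log2 units in control, 8.18, 8.28 and 9.64 after FSH, and 7.01, 7.39 and 7.19 after AREG/EREG. The FSH samples lay above all other samples by at least 0.79 log2 units. AREG/EREG samples lay on both sides of the control samples, so those groups overlapped. Levels of the *AREG* and *FGF9* probes were not set against each other, since probes differ in brightness at equal RNA.

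**Figure D1:**
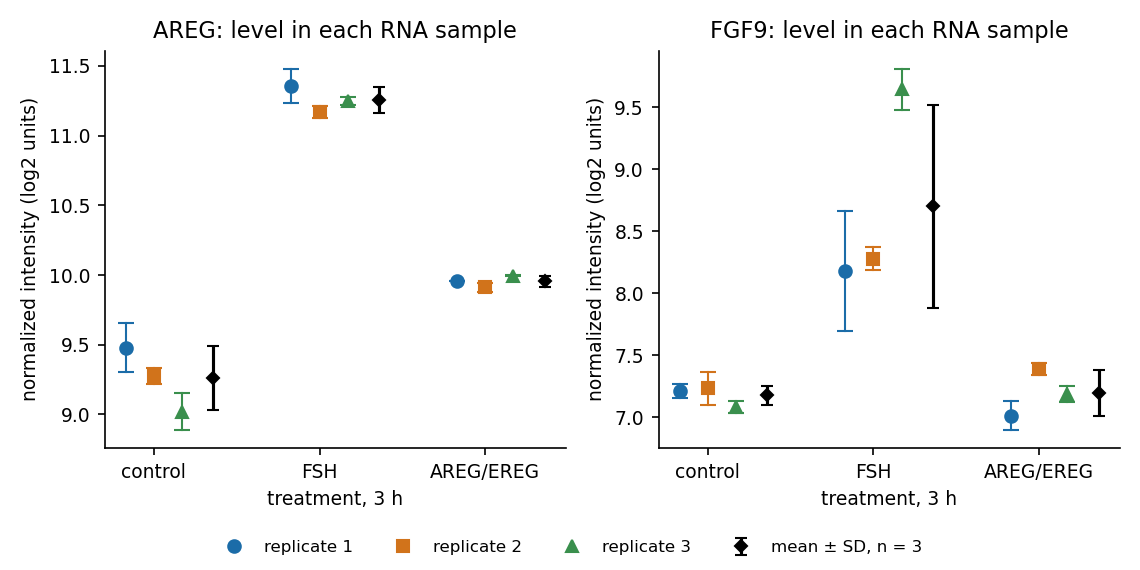
Normalized intensity (log2 units) of *AREG* and *FGF9* in each of the 9 RNA samples by treatment. Coloured symbols are the mean of the red and the green channel of one RNA sample, the ends of the coloured bars are these channels, and black diamonds are the treatment mean ± SD (n = 3). *AREG* falls into 3 levels, 9.26, 11.26 and 9.96, whereas *FGF9* departs from about 7.2 only after FSH, where replicate 3 stands apart at 9.64.

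FSH raised both ligands. *AREG* was 4.04-fold higher than in control, a difference of 2.01 on the log2 scale (SE 0.10, 95% CI 1.79 to 2.24; limma, adjusted p = 4.3e-07), and it rose in 3 of 3 replicates, by 1.98, 1.88 and 2.19. *FGF9* was 3.07-fold higher, a difference of 1.62 (SE 0.27, 95% CI 1.02 to 2.21; limma, adjusted p = 0.000674), with replicate differences of 1.19, 1.03 and 2.64. Each RNA sample enters more than one array ratio, and the fit takes these ratios as independent. Its SEs and intervals, here and below, therefore do not measure the spread of the replicates. The SD of the replicate differences was 0.16 for *AREG* and 0.89 for *FGF9*. The control spot of *FGF9* lay near background, and its difference was 2.10 with an offset of 0 in place of 50 and 2.35 with Agilent's processed signals, both called. Ranked from the largest rise, *AREG* stood at place 96 and *FGF9* at place 159 of 19492 probes tested. Among these probes 17.5% were called higher after FSH at an adjusted p under 0.01, so a call alone was common. The median difference of all probes was 0.016. In whole-sample RNA of this kind, more cells expressing a gene and more transcripts per cell cannot be told apart.

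Of the 3 treatments and both genes, *FGF9* after FSH was the least even. Replicate 3 measured 9.48 in the green and 9.81 in the red channel, on arrays shared with AREG/EREG and with control, so both of its measurements were high. The channels of FSH replicate 1 differed most, with 7.69 in green and 8.67 in red. The SD of the FSH samples was 0.82 for *FGF9* and 0.094 for *AREG*, and 0.348% of 15793 probes measured in all channels had a wider SD after FSH than *FGF9*. The range of the replicate differences in FSH vs. control was 1.61 for *FGF9* and 0.32 for *AREG*, beside a median of 0.18 over 2745 probes called higher with a value in each loop. The median rise of those probes was 0.36, 0.38 and 0.40 in replicates 1, 2 and 3, and replicate 3 was the highest for 40.4% of them. The part of this in the high *FGF9* value was not tested. Without replicate 3 the *FGF9* difference was 1.11 (SE 0.098; limma, adjusted p = 0.000331). The *FGF9* call was lost when each RNA sample was fitted once as the mean of its channels without the block (1.52; adjusted p = 0.0156) and was kept in the replicate block fit (adjusted p = 0.00649), whereas *AREG* kept its own under all 17 alternatives, with values from 1.93 to 2.16.

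AREG/EREG raised *AREG*, while the difference of *FGF9* did not pass the test. *AREG* was 1.63-fold higher than in control, a difference of 0.70 (SE 0.10, 95% CI 0.48 to 0.93; limma, adjusted p = 0.000625), and it was higher in 3 of 3 replicates, by 0.50, 0.58 and 1.04. It ranked at place 550 of 19495 probes, of which 9.28% were called higher. *FGF9* differed by 0.16 (SE 0.27; limma, adjusted p = 0.707), with replicate values of 0.19, 0.035 and 0.25. The 95% CI of this difference, -0.44 to 0.75, holds 0 and also the value of *AREG*, and it leaves room for a rise of up to 1.68-fold. The call of *AREG* was lost when RNA samples were fitted once each without the block (0.70; adjusted p = 0.014), though not in the replicate block fit (adjusted p = 0.00374), and when only the arrays that carried AREG/EREG beside control were used (0.62; adjusted p = 0.0983).

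For *AREG*, control samples were less even than AREG/EREG samples. The SD was 0.23 in control and 0.041 in AREG/EREG samples, and 24.8% and 96.7% of the 15793 probes measured in all channels had a wider SD in the respective treatment. The control level was highest in replicate 1, which had the smallest rise (0.50), and lowest in replicate 3, which had the largest (1.04). Since the rise is taken from the control level and the AREG/EREG levels were nearly equal, this order largely follows from the subtraction. For *FGF9*, the SD was 0.079 in control and 0.19 in AREG/EREG samples, and 79.4% and 57.9% of the same probes had a wider one.

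**Figure D2:**
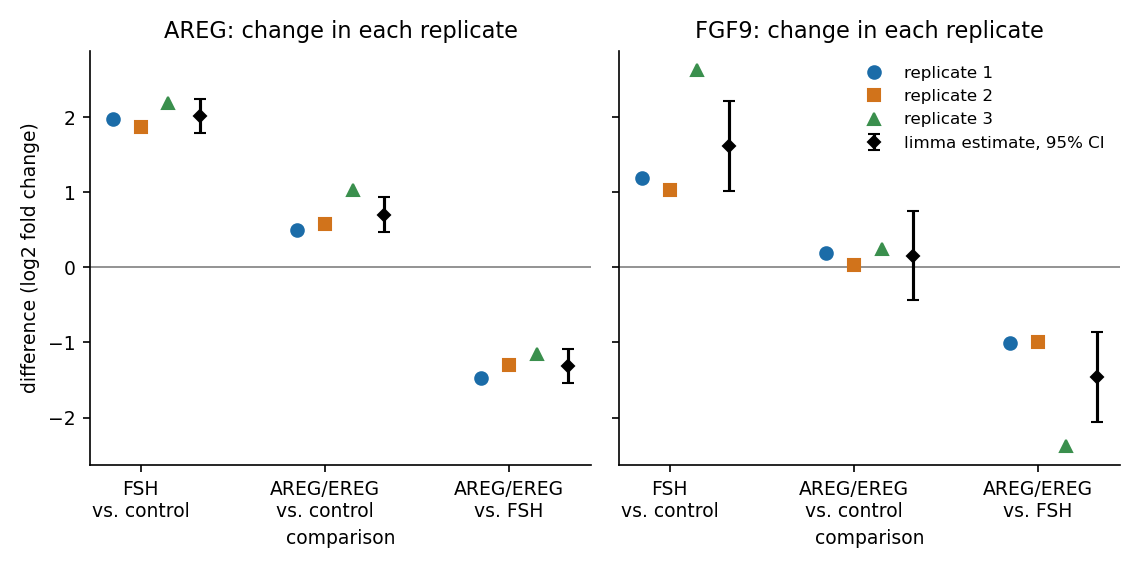
Differences of *AREG* and *FGF9* in the 3 comparisons (log2 fold change). Coloured symbols are the values of replicates 1 to 3, each solved within its loop of 3 arrays, and black diamonds are the limma estimates with 95% confidence intervals. All 3 replicates of *AREG* lie on one side of 0 in each comparison, and *FGF9* lies near 0 only in AREG/EREG vs. control.

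In the direct contrast of the stimuli, both genes were lower after AREG/EREG than after FSH. *AREG* differed by -1.31 (SE 0.10; limma, adjusted p = 2.11e-05), that is, it was 2.48-fold higher after FSH, and the replicates gave -1.47, -1.30 and -1.16. *FGF9* differed by -1.46 (SE 0.27; limma, adjusted p = 0.00242), or 2.75-fold higher after FSH, and the replicates gave -1.004, -0.995 and -2.39. The *FGF9* spot lay near background after AREG/EREG. Its difference was -1.86 with a background offset of 0 and -2.08 with Agilent's processed signals, both called. In this comparison 8.42% of 19495 probes were called lower, *FGF9* stood at place 75 and *AREG* at place 105 from the lowest. With each RNA sample fitted once, the *FGF9* difference was -1.50 and was no longer called, with an adjusted p of 0.0434 without and 0.0171 with the replicate block. It was also not called without replicate 1 (-1.69; adjusted p = 0.0198) and with direct arrays only (-1.25; adjusted p = 0.0496). The *AREG* difference was called under all 17 alternatives, from -1.39 to -1.23.

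The same order can be read from the 9 RNA samples with no model. All FSH samples exceeded all control samples for both genes, a pattern that 16.5% of 15793 probes showed. All AREG/EREG samples exceeded all control samples for *AREG* but not for *FGF9*, as was the case for 8.56% of probes. All FSH samples exceeded all AREG/EREG samples for both, beside 9.66% of probes. A two-sided exact permutation test of 3 against 3 samples gave p = 0.1, the smallest it allows, for each of these separations and p = 1 for *FGF9* in AREG/EREG vs. control. The share of separated probes is thus the background of these statements, and the exact test cannot pass 0.05 here.

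The response to AREG/EREG was also set beside the response to FSH in each replicate. The rise of *AREG* after AREG/EREG came to 25.4%, 30.7% and 47.2% of its log2 rise after FSH in replicates 1, 2 and 3. For *FGF9* it came to 15.7%, 3.36% and 9.52%, below *AREG* in every replicate. With each RNA sample fitted once, the AREG/EREG difference of *FGF9* was 0.021 in place of 0.16, so its share is poorly determined. Both changes are taken from the same control samples. Over 3417 probes called higher after FSH the median of this share was 42.6%, with quartiles of 20.4% and 71.1%. *AREG*, at 35.0% in the fit, thus lay inside the middle range and *FGF9*, at 9.73%, below it. These shares are descriptions and were not tested.

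The responses of the genes were subtracted from each other within each replicate. In FSH vs. control, *AREG* minus *FGF9* was 0.79, 0.85 and -0.44, with a mean of 0.40 ± 0.73 (SD, n = 3). In AREG/EREG vs. control it was 0.31, 0.54 and 0.78, with a mean of 0.55 ± 0.23 (SD, n = 3), and in AREG/EREG vs. FSH it was -0.47, -0.30 and 1.23, with a mean of 0.15 ± 0.94. *AREG* thus responded more than *FGF9* to AREG/EREG in 3 of 3 replicates and more to FSH in replicates 1 and 2 only. The FSH mean of 0.40 was 0.065 with a background offset of 0 and -0.25 with Agilent's processed signals, and it ran from 0.17 to 0.82 when a replicate was left out. The mean of 0.15 in AREG/EREG vs. FSH was 0.47 with that offset and 0.74 with Agilent's processed signals. It was 0.060 with no background correction. Exact two-sided sign-flip tests gave p = 0.5, 0.25 and 1 (0.75, 0.75 and 1 after Benjamini-Hochberg adjustment over the 3 comparisons). The smallest p that this test allows for 3 replicates is 0.25. It could therefore pass no difference between the genes, and none is shown to be absent.

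Each difference was measured directly, on the array that held both treatments, and indirectly, as the sum over the other arrays of the loop. For *AREG* in FSH vs. control the direct values were 2.18, 1.91 and 2.12 and the indirect values 1.57, 1.81 and 2.33. In AREG/EREG vs. control they were 0.30, 0.55 and 1.10 directly and 0.90, 0.64 and 0.90 indirectly, all above 0. The mismatch was largest in replicate 1, at 0.60, and was 0.094 and 0.21 in size in replicates 2 and 3. For *FGF9* in FSH vs. control the direct values were 1.40, 1.09 and 2.67 and the indirect values 0.77, 0.91 and 2.57. In AREG/EREG vs. control *FGF9* was -0.024, -0.024 and 0.21 directly and 0.61, 0.15 and 0.32 indirectly, so its sign depended on the arrays. Replicate 1 again closed least well, with a mismatch of 0.63. The high *FGF9* value of FSH replicate 3 was present on either path.

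**Figure D3:**
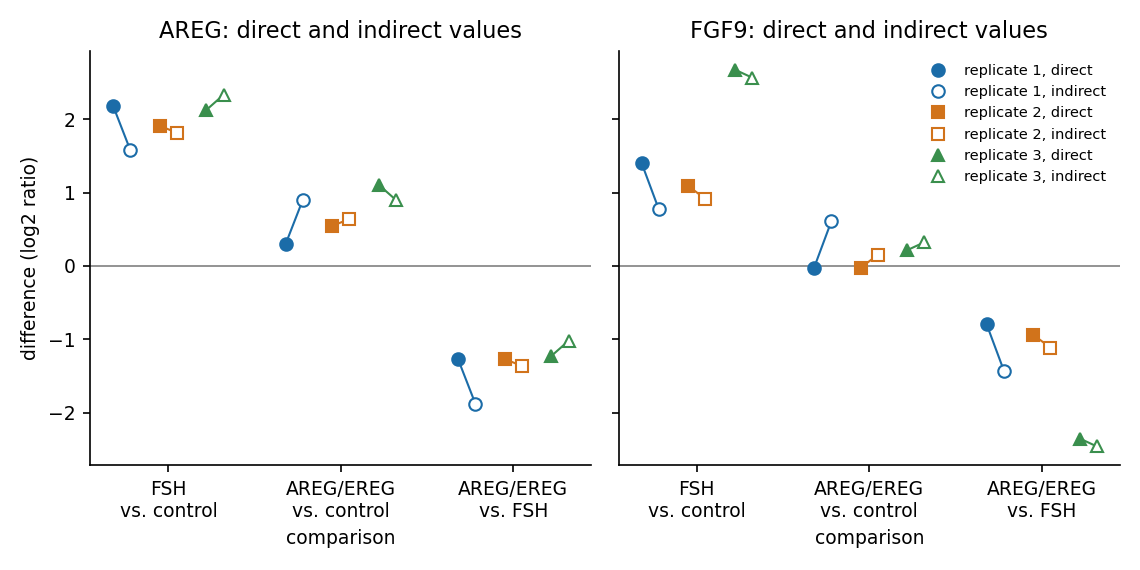
Direct (filled symbols) and indirect (open symbols) log2 ratios of *AREG* and *FGF9* for each replicate and comparison, with lines joining the values of one replicate. The lines are longest in replicate 1, with a mismatch of 0.60 for *AREG* and 0.63 for *FGF9*, and all *AREG* values keep their side of 0.

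The arrays of replicate 1 were scanned on a different day from those of replicates 2 and 3, and each scan day held all 3 treatments. The FSH difference of *AREG* was 1.98 in replicate 1 and 2.03 on the other day (SE 0.11; limma, adjusted p = 5.91e-05), and its AREG/EREG difference was 0.50 and 0.81. The FSH difference of *FGF9* was 1.19 in replicate 1 and 1.83 on the other day (SE 0.36; limma, adjusted p = 0.00791), where replicates 2 and 3 themselves gave 1.03 and 2.64. Its AREG/EREG difference was 0.19 and 0.14. The *FGF9* difference after AREG/EREG had no settled sign in replicate 1, where the direct array gave -0.024 and the sample level was lower than in control (7.01 and 7.21).

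Other members of both ligand families were looked for. *AREG* was the one measured gene of 11 EGF-like ligands and *FGF9* the one measured gene of 22 FGF ligands. No probe could be named for the 18 EGF receptors and regulators or the 21 FGF receptors and regulators on the lists, nor for *EREG*, and these were not analysed here. The receptor through which FSH acts was measured: *FSHR* fell by 0.89 after FSH (SE 0.084; limma, adjusted p = 1.9e-05) and also fell after AREG/EREG, with a difference of -0.44 (adjusted p = 0.0033; 0.0547 with the replicate block), while *GNAS*, the stimulatory G protein that couples it to cAMP, differed by 0.26 and 0.31 and was not called (adjusted p = 0.0307 and 0.0339). Of the 8 measured genes of 23 of the FSH receptor and cAMP pathway, 5 rose and 1 fell after FSH, beside 36.8% of all probes called, with a median of 1.65 beside 0.016 for all probes. After AREG/EREG 4 rose and 3 fell, beside 19.6% of all probes, with a median of 0.32 beside 0.00075. With the replicate block these latter counts were 3 and 2, and the median was 0.12. The number called after AREG/EREG fell from 7 to 4 without replicate 3. It was 4 with direct arrays only and 2 with RNA samples fitted once without the block. Against FSH, 6 were lower and 1 was higher after AREG/EREG (4 lower with the replicate block), beside 20.5% of all probes called. This total of 7 fell to 4 without replicate 3. It was 4 with direct arrays only and 1 with RNA samples fitted once without the block. The study itself chose 6 of these 8 probes on these samples, among them all 5 that rose after FSH. These counts and medians are therefore no independent evidence of direction. *FSHR* and *GNAS*, which were not so chosen, were not called higher after FSH. *RGS2*, a regulator of G protein signalling, rose by 1.63 after FSH like *FGF9*, but fell by 1.56 after AREG/EREG (adjusted p = 0.000183). *CEBPB*, a transcription factor needed for ovulation, rose by 1.66 after FSH and 0.34 after AREG/EREG (adjusted p = 0.00661; 0.46 with the replicate block), with a value of its own loop in replicate 3 only.

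Genes of cumulus expansion were compared with *AREG*. All 9 measured genes of this list of 14 carry probe names that the study itself chose on these samples, so their direction is no independent evidence. After FSH 8 rose and 1 fell (7 and 1 with the replicate block), beside 36.8% of all probes called. After AREG/EREG 6 rose and 1 fell (3 and 1 with the block), beside 19.6% of all probes, and the number called fell from 7 to 6, 4 and 2 without replicates 1, 2 and 3 and to 1 with RNA samples fitted once without the block. Against FSH, 6 were lower and 2 higher after AREG/EREG (5 and 1 with the block), beside 20.5% of all probes. This total of 8 fell to 5 without replicate 3 and to 3 with RNA samples fitted once without the block. *TNFAIP6*, which links hyaluronan in the matrix, rose by 4.94 after FSH and 1.06 after AREG/EREG (adjusted p = 0.00177; 0.102 with the block). *UAP1*, which makes a precursor of hyaluronan, rose by 2.51 and 1.37, and *SDC4*, a heparan sulfate proteoglycan, by 2.71 and 0.74 (adjusted p = 0.000799 for the latter; 0.014 with the block). *PTGES*, a prostaglandin E synthase, fell, with differences of -1.90 and -1.15. In the study's RT-PCR at 3 h, not analysed here, *TNFAIP6*, *UAP1* and *SDC4* were also higher and *PTGES* lower after FSH.

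**Figure D4:**
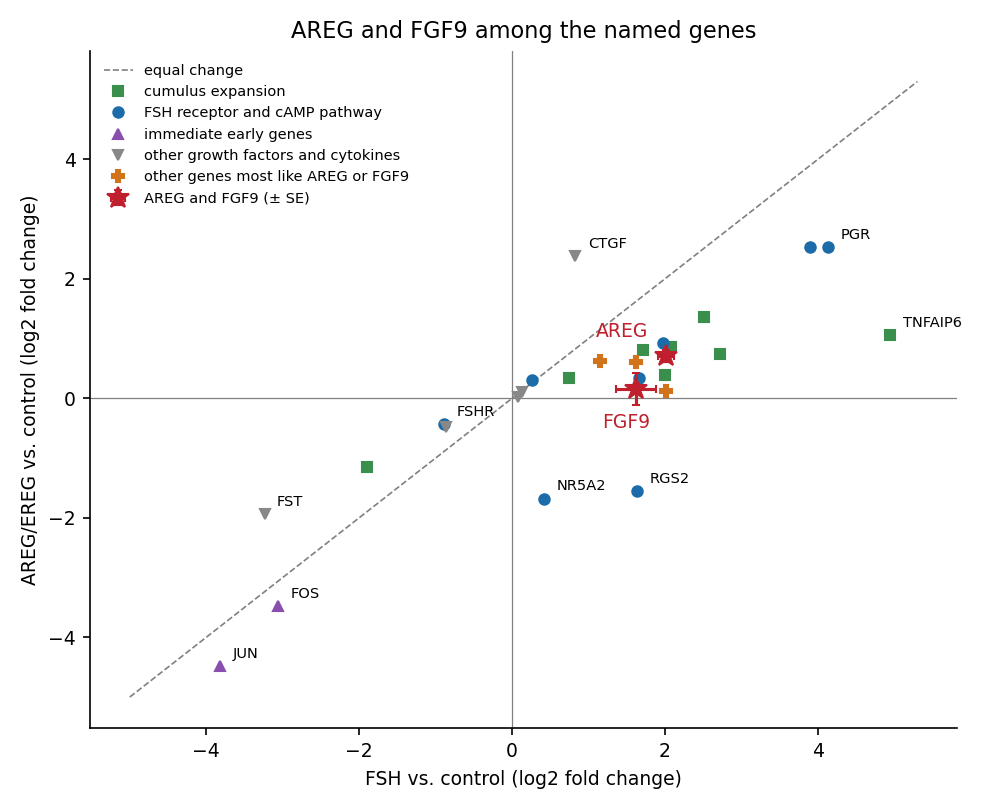
FSH vs. control (x axis) against AREG/EREG vs. control (y axis), both as log2 fold change with shared control samples, for *AREG* and *FGF9* (red stars, ± SE) and for named genes by list. *AREG* (2.01, 0.70) and *FGF9* (1.62, 0.16) lie to the right of the dashed line of equal change, near *HAS2* and *PLAUR*, and far from *CTGF*, which lies above it.

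The genes whose replicate values were most like those of each ligand were sought among 157 named probes with a value in each loop. Candidates were probes that the study chose for changes on these samples, and probes named by RefSeq transcripts. All of the nearest genes but *AVPR2* come from the study's choice. Their likeness to the ligands is therefore partly set by that choice and is a description only. Likeness was the root mean square distance over 6 values, the differences of replicates 1 to 3 in FSH vs. control and in AREG/EREG vs. control. For *AREG* the nearest was *HAS2*, the enzyme that makes hyaluronan, at a distance of 0.28, with 2.08 after FSH and 0.86 after AREG/EREG. *PRDX2*, a peroxiredoxin (0.33), *PLAUR*, the urokinase receptor (0.37), and *HSD17B7*, a 17-beta-hydroxysteroid dehydrogenase (0.44), were also among the 5 nearest. For *FGF9* the nearest were *PLAUR* (0.50), *PRDX2* (0.58), *FOXO3*, a forkhead transcription factor (0.59), *AREG* itself (0.65) and *AVPR2*, a vasopressin receptor (0.73). *FOXO3* differed by 2.01 after FSH and by 0.13 after AREG/EREG. Seen from *AREG*, *FGF9* was the 12th nearest. The values correlated with r = 0.93 between *AREG* and *HAS2* and r = 0.87 between *AREG* and *FGF9*, as a description only, since the 6 values come from 3 loops, share control samples and fall into an FSH and an AREG/EREG group.

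At a log2 difference of 1.5, a cutoff that sets larger changes apart, *AREG* and *FGF9* passed in FSH vs. control and neither passed in AREG/EREG vs. control. The 95% CI of *AREG* after FSH lay wholly above this cutoff, and that of *FGF9* held it. *FGF9* stood below it in replicates 1 and 2 (1.19 and 1.03), without replicate 3 (1.11) and with no background correction (1.48). The fit of array ratios called 7165 probes after FSH and 3822 after AREG/EREG, each against control, and 3994 between the stimuli. With each RNA sample fitted once, 1220, 381 and 151 were called without the replicate block and 2721, 1230 and 655 with it. *AREG* was called in all 3 comparisons with the block.

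**Figure D5:**
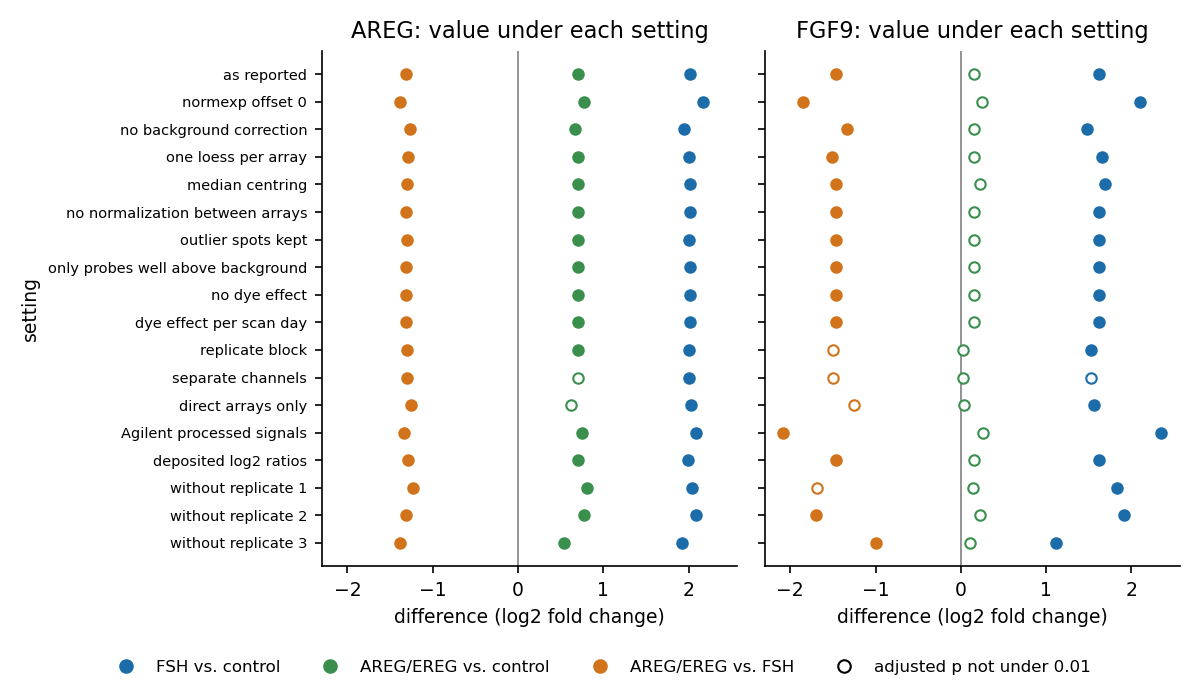
Difference of *AREG* and *FGF9* (log2 fold change) in the 3 comparisons as reported and under 17 alternative settings, one row each. Filled symbols have an adjusted p under 0.01 and open symbols do not. *AREG* in FSH vs. control stays between 1.93 and 2.16, *FGF9* ranges from 1.11 without replicate 3 to 2.35 with Agilent's processed signals, and *FGF9* in AREG/EREG vs. control is open throughout.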

How the data were processed

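Cumulus cell RNA of 3 treatments was hybridized to 9 arrays with 2 dyes. The authors scanned them with Agilent Feature Extraction 10.7.3.1 and deposited median spot and background intensities, processed intensities and a table of log2 ratios (r = 0.998 to 0.999 per array with the ratios used here). With limma 3.58.1 (R 4.3.3), median intensities were background-corrected (normexp, offset 50) and normalized by print-tip loess and Aquantile. Outlier spots were dropped, as were 756 control spots. The linear model had terms for treatment and dye (6 residual degrees of freedom), and p-values were adjusted over all probes tested (Benjamini-Hochberg, threshold 0.01). It was run on simulated data with independent noise in each array ratio, which cannot show the effect of RNA samples shared between arrays.

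The level of an RNA sample is the mean of its 2 channels. Each sample enters 2 ratios, so the arrays of a loop are not independent, and an alternative fitted each RNA sample once. Samples with the same replicate number deviated together from their treatment means (r = 0.22 to 0.75 in 9 pairs), and the 18 other pairs gave r = -0.74 to 0.55. Samples of the same number share an array whose mean intensity enters the levels of both. Part of their correlation is thus built in, and these values do not test the pairing. The numbers mark biological replicates whose samples share arrays, so they were taken to pair the samples.

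Gene names came from the study or, for 181 probes, from RefSeq transcripts in the probe name. Named genes were both ligands, measured members of fixed lists and, for each ligand, the 5 named probes nearest in replicate values. Values of a few genes were left out of the text and plots. Members and lists were chosen with earlier results of these data known.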

Additional observations from a re-analysis of the deposited data

How the results depend on the processing

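Of 17 alternatives, *AREG* was called higher than control in 17 after FSH and in 15 after AREG/EREG, and it was called in 17 between the stimuli. *FGF9* was called in 16, 0 and 13, and no direction of either gene turned. The setting with no normalization between arrays could not differ, since that step leaves the ratios as they are. Fits of one value per RNA sample gave the same estimates with and without the replicate block. Calls were lost in both (*FGF9*, AREG/EREG vs. FSH, -1.50), with separate channels, which is the fit without the block (*AREG*, AREG/EREG vs. control, 0.70; *FGF9*, FSH vs. control, 1.52) and with direct arrays only (*AREG*, AREG/EREG vs. control, 0.62; *FGF9*, AREG/EREG vs. FSH, -1.25), and without replicate 1 (*FGF9*, AREG/EREG vs. FSH, -1.69). The fits to direct arrays have fewer ratios by construction, and the cause of the other losses was not tested. Leaving out a replicate gave 1.93 to 2.08, 0.54 to 0.81 and -1.39 to -1.23 for *AREG* and 1.11 to 1.91, 0.11 to 0.22 and -1.69 to -0.999 for *FGF9*. The fit with the replicate block changed no other call of these genes.

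In the same order of comparisons, the probes called numbered 2721, 1230 and 655 with the replicate block, 1220, 381 and 151 with separate channels and 4253, 506 and 840 with direct arrays only. They numbered 3841 to 5224, 1591 to 2544 and 1155 to 2621 when a replicate was left out. The mean of *AREG* minus *FGF9* turned to -0.25 in FSH vs. control with Agilent's processed signals and ran from -0.39 (without replicate 3) to 0.46 in AREG/EREG vs. FSH when a replicate was left out, and the cause was not tested. Of 459 further counts over gene lists, 37 moved by over 1.5 times. The 9 arrays limit the precision.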

Other observations

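Other growth factors and cytokines were examined in the same way as *AREG* and *FGF9*. Of 33 such genes 6 had a named probe and 5 could be tested. After FSH 2 were called, both lower, a share near the 36.8% of all probes called: *FST*, which binds activin, fell by 3.24 (limma, adjusted p = 3.96e-07) and *INHA*, the inhibin alpha subunit, fell by 0.87 (adjusted p = 0.00388; 0.0255 with the replicate block, which pairs samples by number). After AREG/EREG *FST* fell by 1.94, and *CTGF*, a matricellular growth factor, rose by 2.38 (SE 0.31; adjusted p = 0.000524), beside 0.83 after FSH (adjusted p = 0.0364). The difference of 1.55 between the stimuli (adjusted p = 0.00313) was lost with the replicate block (0.97; adjusted p = 0.0562), and *CTGF* had no value for replicate 3 within its loop. *LIF*, a cytokine that acts on the cumulus, and *BMP15*, the oocyte's growth factor, were not called in any comparison. *IL1A* was on the array but was not tested. The probe names of *FST* and *CTGF* come from the study's own choice on these samples. Of the 5 genes tested, 2 were called in each of the 3 comparisons, beside 36.8%, 19.6% and 20.5% of all probes. Without replicate 1 the numbers were 1 after FSH, 1 after AREG/EREG and 0 between the stimuli.

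The immediate early genes *FOS* and *JUN*, which encode subunits of the transcription factor AP1, were called lower on the array after either stimulus at 3 h, where 36.8% and 19.6% of all probes were called. *FOS* differed from control by -3.06 after FSH (limma, adjusted p = 1.62e-05) and by -3.48 after AREG/EREG (adjusted p = 1.83e-05), and *JUN* by -3.82 (adjusted p = 3.01e-08) and -4.49 (adjusted p = 2.08e-08). RT-PCR measurements of these genes were not analysed here. In the study's RT-PCR at 3 h, *FOS* was higher than control after either stimulus. *JUN* did not change significantly after FSH and was lower after AREG/EREG, while the study's RT-PCR time course found it affected by neither stimulus. The fall of *FOS* on the array thus runs against the study's RT-PCR. The fall of *JUN* after FSH was not seen there either, and the causes were not tested. The probe names of *FOS* and *JUN* come from the study's own choice on these samples.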
